A study of Mus musculus with 12 samples.

Results

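The megalin and cubilin endocytosis genes described here are Lrp2, Cubn, Amn, Dab2, Clcn5, Ocrl and Fcgrt, 7 of the 22053 rows of a table of kidney transcript levels, taken by gene symbol and not by any measured value. All 7 were found once each and all passed the filter on low values. The values are FPKM (fragments mapped to a gene, divided by its transcript length and by the size of the library), so that levels of different genes can be set side by side. Whole kidneys of 12 C57BL/6 mice were sequenced, 1 library per mouse, in 3 groups of 4. Control mice ate the adenine-free form of the diet. CKD mice, a model of chronic kidney disease, ate a diet with 0.2% adenine from 8 to 16 weeks of age. CKD+Fe mice ate the same adenine diet and were given iron dextran, a complex of ferric hydroxide and dextran, at 0.5 g/kg by weekly i.p. injection, and by the study's methods the control and CKD mice were injected weekly with PBS instead. No allele was modified in any group. Nothing in the labels ties mice to a batch. The groups are therefore adenine with its whole course of kidney damage against its absence, and iron dextran on top of adenine, with no group given iron on the control diet.

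Filtered plasma proteins are recovered in the proximal tubule by a pair of large receptors on the apical membrane. Megalin, encoded by Lrp2, spans the membrane and belongs to the LDL receptor family. Cubilin, encoded by Cubn, has no membrane span of its own and reaches the surface bound to amnionless, the product of Amn. Dab2 is the clathrin adaptor that binds the cytoplasmic tail of megalin. Clcn5 encodes the chloride-proton exchanger ClC-5 of early endosomes, whose loss causes Dent disease. Ocrl encodes an inositol polyphosphate 5-phosphatase of endosomes and the trans-Golgi, whose loss causes Lowe syndrome or a form of Dent disease. Fcgrt encodes the heavy chain of the neonatal Fc receptor, which returns albumin and IgG from endosomes, in a complex with the B2m light chain. Loss of this uptake is known for low-molecular-weight proteinuria.

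Sequence upstream of 4 of the genes is printed because Lrp2, Cubn and Amn, the receptor complex, were all lower in CKD kidneys and Ocrl was the gene that was higher. All 7 genes had promoter windows in the RefSeq table for build GRCm38.p6, 9 windows in all, each running from 250 bases before to 50 bases after an annotated start. Each stretch below ends before the outermost start site annotated in RefSeq or GENCODE and overlaps 0 annotated exons. It is given 5′ to 3′ on the strand of the gene. Capitals mark matches, on either strand, to the letters of a GC box (GGGCGG), the E-box of the lysosomal CLEAR element (CACGTG) or a TATA box (TATAAA).
Lrp2 upstream (chr2:69586066-69586279, minus strand): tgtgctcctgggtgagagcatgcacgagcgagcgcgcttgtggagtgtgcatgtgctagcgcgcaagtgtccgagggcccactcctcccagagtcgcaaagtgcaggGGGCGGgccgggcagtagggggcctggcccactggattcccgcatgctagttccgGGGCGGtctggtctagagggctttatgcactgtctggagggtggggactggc
Cubn upstream (chr2:13491877-13492126, minus strand): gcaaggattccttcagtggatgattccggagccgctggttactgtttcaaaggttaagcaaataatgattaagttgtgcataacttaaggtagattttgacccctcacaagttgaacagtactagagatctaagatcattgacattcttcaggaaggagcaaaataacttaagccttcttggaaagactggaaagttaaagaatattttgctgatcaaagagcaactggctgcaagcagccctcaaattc
Amn upstream (chr12:111270846-111271094, plus strand): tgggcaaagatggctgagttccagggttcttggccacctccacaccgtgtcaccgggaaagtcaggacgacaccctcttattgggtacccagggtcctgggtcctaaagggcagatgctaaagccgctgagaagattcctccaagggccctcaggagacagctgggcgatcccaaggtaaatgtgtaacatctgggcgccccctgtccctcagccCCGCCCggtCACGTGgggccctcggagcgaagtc
Ocrl upstream (chrX:47912206-47912386, plus strand): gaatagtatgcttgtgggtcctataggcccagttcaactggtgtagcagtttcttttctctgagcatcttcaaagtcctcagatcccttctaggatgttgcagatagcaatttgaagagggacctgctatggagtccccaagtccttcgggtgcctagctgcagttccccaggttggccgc

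None of these motifs was found in all 3 receptor genes in the printed stretches, and the GC box was found in Lrp2 and Amn. Lrp2 held 2 GC boxes, beginning 143 and 88 bases before its RefSeq start. Amn held a GC box and a CACGTG that did not overlap, beginning 35 and 26 bases before its start. Cubn and Ocrl held 0 matches, although the whole window of Ocrl, which reaches past the printed stretch, held 2 GC boxes. Among all 32851 RefSeq windows of the same length, 35.7% held the GC box, 7.15% held CACGTG and 13.6% held TATAAA. The windows also differed in base composition. The Lrp2 window was 65% G and C with 20 CpG pairs and the Amn window 62.3% with 15, whereas the Cubn window was 44.3% with 5, against medians of 52.7% and 7 over all windows. These are matches of letters only.

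Some libraries stood apart from their groups. Counting genes at least 2-fold from the mean of the rest of the group, control 3 had 596 such genes, CKD 3 had 806 and CKD+Fe 1 had 442, and the other 9 libraries had 42 to 225. Libraries also differed in how the level depended on transcript length. The median log2 deviation from the other mice of the group of 675 genes with long transcripts (at least 8000 bases) minus that of 3003 genes with short transcripts (at most 2000 bases) was -0.87 in CKD 3 and -0.48 in control 3, and it ran from -0.19 to 0.56 in the other 10 libraries. This touches the receptor genes, since the longest annotated transcript is 15460 bases for Lrp2 and 11262 for Cubn but 1701 for Amn and 1770 for Fcgrt. The scale of the table matters as well. In CKD against control the median of all 13148 tested genes was 0.50 on the log2 scale, and rescaling the libraries to a common median of ratios moved it to 0.01. A gene that kept pace with the median of all genes therefore reads as about 0.50 higher. This median also differed with transcript length, at 0.85 for the long and 0.17 for the short transcripts defined above. The 0.50 thus lies below the median of long transcripts and above that of short ones. Directions below are given with their value after rescaling where they differ. In CKD against control 10 of 10 macrophage markers were higher and 17 of 20 proximal tubule markers were lower, the latter with a summed level of 9609 to 11713 FPKM in control, 1795 to 3133 in CKD and 1982 to 4458 in CKD+Fe mice. Of all genes 54.6% were higher and 13.3% lower. In whole tissue, fewer cells of a type and less RNA per cell cannot be told apart.

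In control kidneys the order of the levels was Dab2, Fcgrt, Lrp2, Amn, Cubn, Clcn5 and Ocrl. Mean levels ran from 154 ± 28.1 FPKM for Dab2 (SD, n = 4) to 4.29 ± 0.411 for Ocrl. The ranges over mice of Dab2, Fcgrt, Lrp2 and Amn overlapped between neighbors in that order, and those of Amn, Cubn, Clcn5 and Ocrl did not. In CKD kidneys the order closed up. Fcgrt (97.9 ± 22.5 FPKM) and Dab2 (92.8 ± 11.1) could not be separated, a gap lay below them, and the other 5 genes followed between 29.1 ± 10.9 for Lrp2 and 12.5 ± 3.70 for Ocrl with overlapping ranges between all neighbors. The same gap lay between Dab2 (112 ± 14.9 FPKM) and Lrp2 (41.5 ± 16.3) in CKD+Fe kidneys. Overlap of ranges leaves out that levels come from the same mice. Cubn was above Clcn5 in 4 of 4 control mice, below it in 4 of 4 CKD mice and above it in 3 of 4 CKD+Fe mice.

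**Figure D1:**
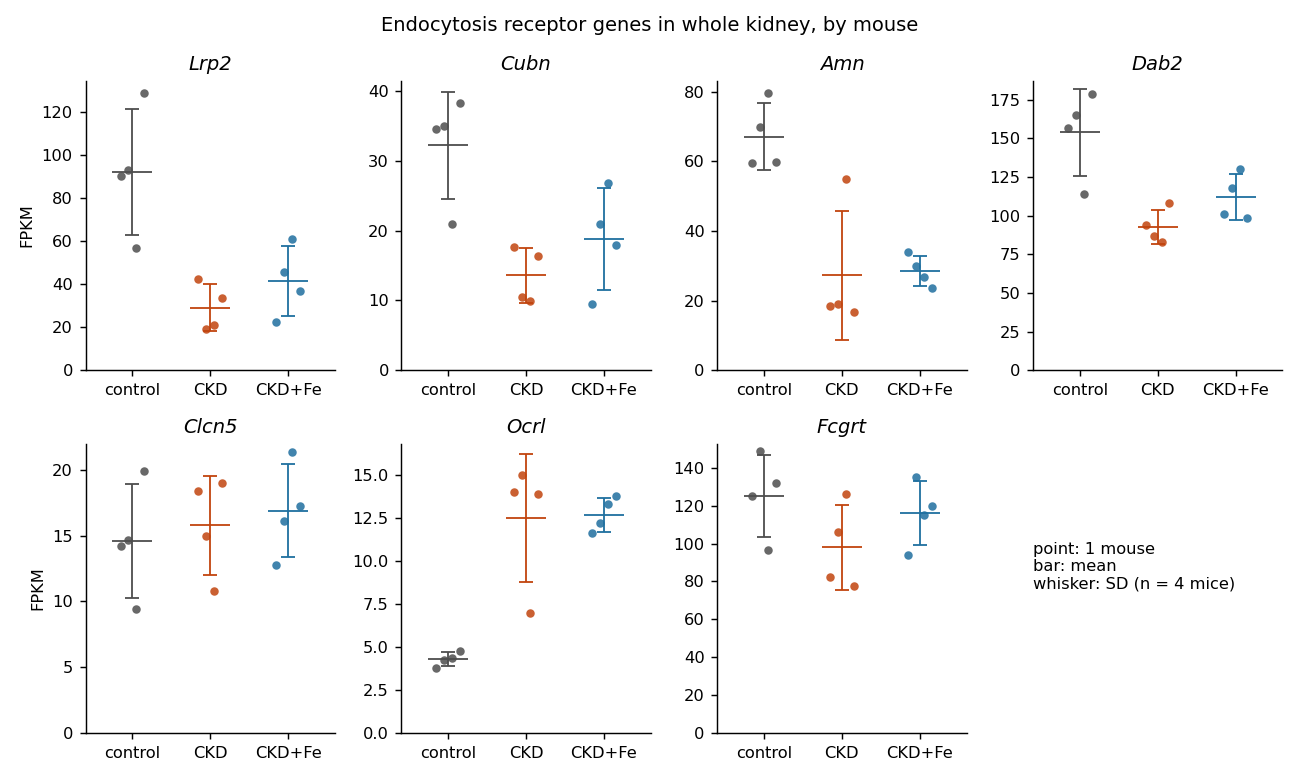
Level of each gene in FPKM (vertical axes, each from 0) in the 4 mice of each group. Points are mice, horizontal bars are means and whiskers are SD. Lrp2, Cubn and Dab2 lie lower in every CKD mouse than in any control mouse, Amn does so with CKD 3 at 55.0 close to the lowest control, and Ocrl lies higher.

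The first comparison asked which of the 7 genes differed between CKD and control kidneys. By limma on log2(FPKM + 1) with Benjamini-Hochberg adjustment over all genes tested, 4 of the 7 were lower (Lrp2, Cubn, Amn and Dab2) and 1 was higher (Ocrl), while Clcn5 and Fcgrt did not pass. Over all genes 13.3% were lower and 54.6% were higher in this comparison. In the same 4 genes every CKD mouse lay below every control mouse, against 10.5% of all genes, and in Ocrl every CKD mouse lay above, against 44.6%. On the deposited scale more of the 7 genes were lower than higher, while the table as a whole held more higher genes. After rescaling, and also without the 3 libraries that stood apart, Fcgrt joined the 4 lower genes and Ocrl was the only higher gene. Of all genes 29.3% were lower and 28.8% higher after rescaling, so that the table as a whole was then nearly even, and 15.7% were lower and 59.4% higher without those libraries.

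Lrp2 (megalin, chr2:69424340-69586065, minus strand) was at 90.2, 93.0, 56.8 and 129 FPKM in control mice 1 to 4. It was at 42.4, 19.4, 21.1 and 33.7 FPKM in CKD mice 1 to 4. The groups did not overlap, and the lowest control value was in control 3, a library low in long transcripts. Lrp2 fell by 1.64 on the log2 scale (SE 0.32, limma adjusted p = 0.000545), from a mean of 92.2 ± 29.5 to 29.1 ± 10.9 FPKM (SD, n = 4 each), and the mean level fell by 68.4%. It stood low among all genes, with 2.14% of them further down. After adjustment for transcript length its log2 change was -2.00, and after rescaling it was -2.21.

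Cubn (cubilin, chr2:13276338-13491813, minus strand) was at 34.5, 35.0, 20.9 and 38.3 FPKM in control mice 1 to 4 and at 17.6, 10.5, 9.98 and 16.4 FPKM in CKD mice 1 to 4. As for Lrp2, control 3 was the lowest control and CKD 2 and CKD 3 were the lowest of the CKD mice. Cubn fell by 1.19 on the log2 scale (SE 0.29, limma adjusted p = 0.00242), from 32.2 ± 7.68 to 13.6 ± 3.95 FPKM.

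Amn (amnionless, chr12:111271111-111276426, plus strand) was at 59.6, 69.7, 79.5 and 59.7 FPKM in control mice 1 to 4. In CKD mice 1 to 4 it was at 18.4, 18.9, 55.0 and 16.7 FPKM. Its order within groups was unlike that of the receptors it serves, with control 3 and CKD 3 the highest of their groups. The log2 change was -1.44 (SE 0.29, limma adjusted p = 0.000692) with CKD 3 and -1.83 without it. Of the 3 receptor genes, Amn had the widest spread in CKD, at 68.0% of its mean against 37.3% for Lrp2 and 29.0% for Cubn.

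Dab2, the adaptor (chr15:6299788-6440712, plus strand), was at 157, 165, 114 and 179 FPKM in control mice 1 to 4 and at 93.7, 86.7, 82.7 and 108 FPKM in CKD mice 1 to 4. The groups came close, at 114 and 108 FPKM, without overlapping. Dab2 fell by 0.71 on the log2 scale (SE 0.16, limma adjusted p = 0.00131), from 154 ± 28.1 to 92.8 ± 11.1 FPKM, a smaller estimate than those of the 3 receptor genes. Macrophage markers rose beside it, from a summed level of 120 to 248 FPKM in control mice to 1776 to 3688 in CKD mice. Macrophages also express Dab2, and the part of these cells in its level was not tested.

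The 2 endosomal genes did not follow the receptors. Clcn5 (ClC-5, chrX:7153810-7319358, minus strand) was at 14.2, 14.7, 9.41 and 19.9 FPKM in control mice 1 to 4 and at 18.4, 15.0, 10.8 and 19.0 FPKM in CKD mice 1 to 4. The groups overlapped across nearly their whole ranges, and control 3 and CKD 3 were again the lowest of their groups. Its log2 change was 0.12 with a 95% interval of -0.36 to 0.61 (limma adjusted p = 0.634), and its sign turned to -0.42 after rescaling and to -0.21 after adjustment for transcript length. Relative to the median of all genes the change of Clcn5 was -0.38.

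Ocrl (chrX:47912387-47965868, plus strand) was at 3.78, 4.26, 4.36 and 4.78 FPKM in control mice 1 to 4 and at 14, 15.0, 6.97 and 13.9 FPKM in CKD mice 1 to 4. Even CKD 3, the lowest of its group, lay above every control mouse. Ocrl rose by 1.30 on the log2 scale (SE 0.19, limma adjusted p = 6.44e-05), from 4.29 ± 0.411 to 12.5 ± 3.70 FPKM. Relative to the median of all genes the rise was 0.80, and after quantile normalization it was 0.61 (adjusted p = 0.0117). The gene is broadly expressed, and 14.3% of all genes had a larger rise.

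Fcgrt (neonatal Fc receptor, chr7:45092990-45103851, minus strand) was at 125, 149, 96.5 and 132 FPKM in control mice 1 to 4 and at 82.1, 106, 126 and 77.8 FPKM in CKD mice 1 to 4. The groups overlapped through control 3 and CKD 3. Its log2 change was -0.36 with a 95% interval of -0.75 to 0.03 (limma adjusted p = 0.0892), so that it did not pass. Without control 3 it was -0.48 (adjusted p = 0.0281), without CKD 3 it was -0.49 (adjusted p = 0.0228), and after rescaling it was -0.94 (adjusted p = 0.00132). After adjustment for transcript length it was -0.17 (adjusted p = 0.396). The call for Fcgrt thus depended on the scale and on single libraries. Its light chain partner B2m rose by 1.10 on the log2 scale (SE 0.20, limma adjusted p = 0.000345), from 592 ± 107 to 1282 ± 321 FPKM, in a gene that every nucleated cell expresses.

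**Figure D2:**
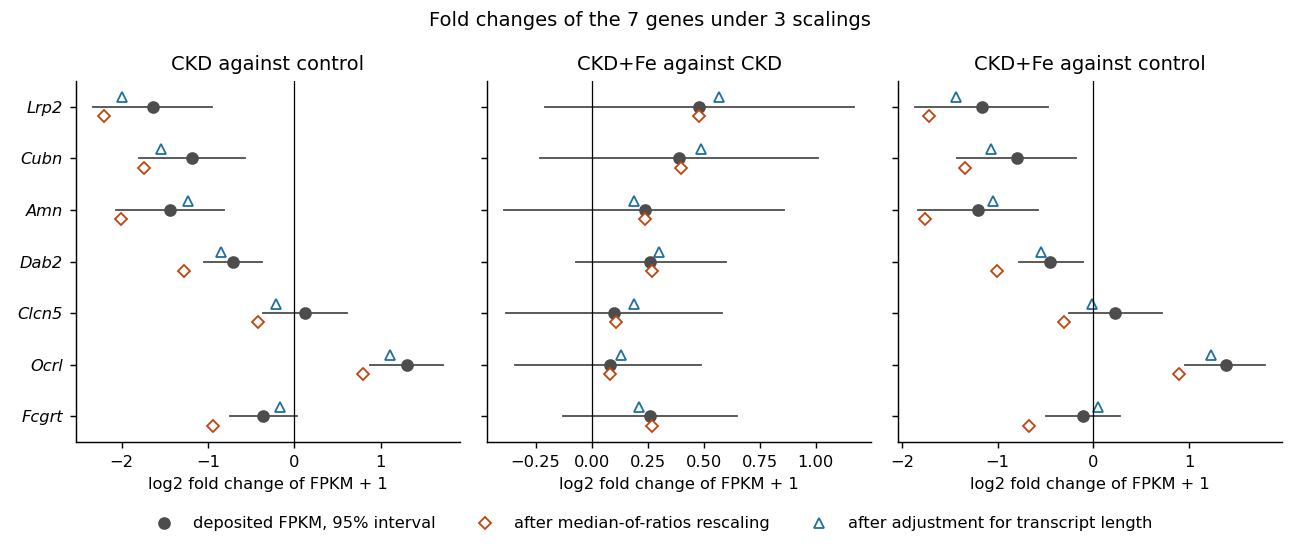
Log2 fold change of FPKM + 1 (horizontal axes, a different range in each panel) for the 7 genes in the 3 comparisons. Filled circles with 95% intervals are the deposited values, open diamonds the values after median-of-ratios rescaling and open triangles those after adjustment for transcript length. Lrp2, Cubn, Amn and Dab2 are left of 0 and Ocrl right of 0 under all 3 in both comparisons with control, while Clcn5 crosses 0.

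The ratio of each gene to Lrp2 in the same mouse does not depend on a common factor per library. It is not free of the dependence on transcript length where the 2 genes differ in length. In control mice 1 to 4 the ratio of Clcn5 to Lrp2 was 0.157, 0.158, 0.166 and 0.155. In CKD mice 1 to 4 it was 0.434, 0.772, 0.514 and 0.564. The control mice were nearly identical in this ratio although Lrp2 itself ranged from 56.8 to 129 FPKM among them, and the CKD mice were all higher. Both genes have long transcripts, the longest of Clcn5 being 8390 bases. The part of that shared length in the narrow control range was not tested. The mean log2 ratio was higher in CKD by 1.81 for Clcn5, 3.16 for Ocrl, 1.31 for Fcgrt, 0.96 for Dab2 and 0.43 for Cubn. Each of these 5 ratios was higher in every CKD mouse than in any control mouse, as was the ratio to Lrp2 of 79.7% of all other genes, and nothing particular to the 5 genes is read from that separation. The exact two-sided permutation p was 0.0286 for each of the 5, the smallest that 4 against 4 mice allow, and 0.0686 after adjustment over the 12 comparisons of ratios. The ratio of Amn to Lrp2 differed by 0.19 on the log2 scale with overlapping groups (exact p = 0.8). It was highest in control 3 (1.40), CKD 3 (2.61) and CKD+Fe 1 (1.53), the 3 libraries that stood apart, and 0.433 to 0.973 in the other 9. The ratio of Cubn to Lrp2, both genes with long transcripts, stayed between 0.297 and 0.541 over all 12 mice.

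**Figure D3:**
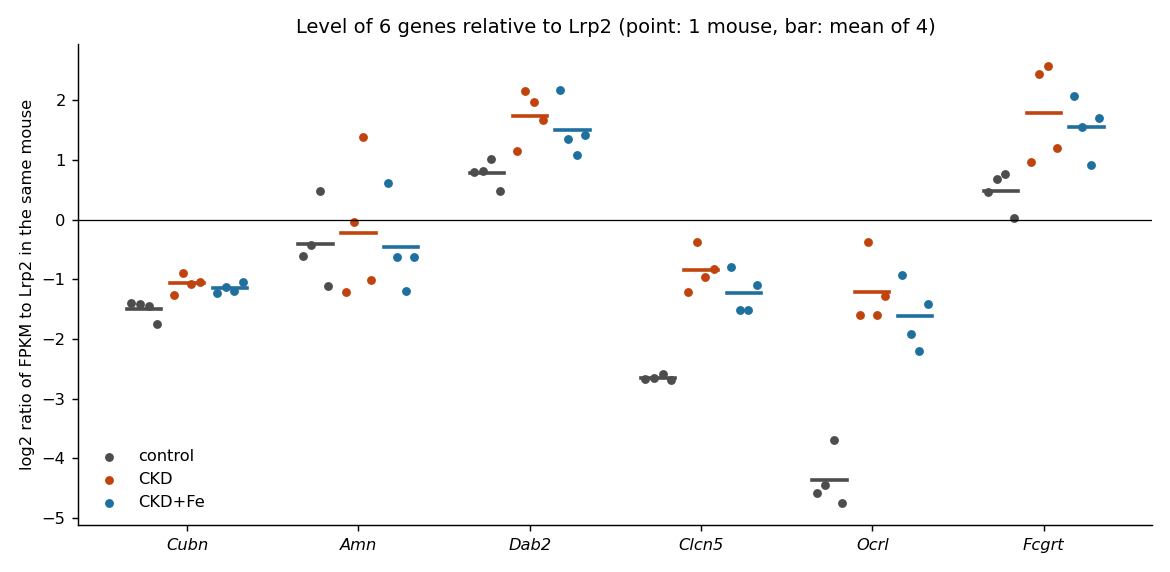
Log2 ratio of the FPKM of 6 genes to that of Lrp2 in the same mouse (vertical axis), by group. Points are mice and bars are means of 4 mice. Clcn5 and Ocrl show the widest gap between control mice and the other groups, and Amn shows overlapping groups.

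**Figure D4:**
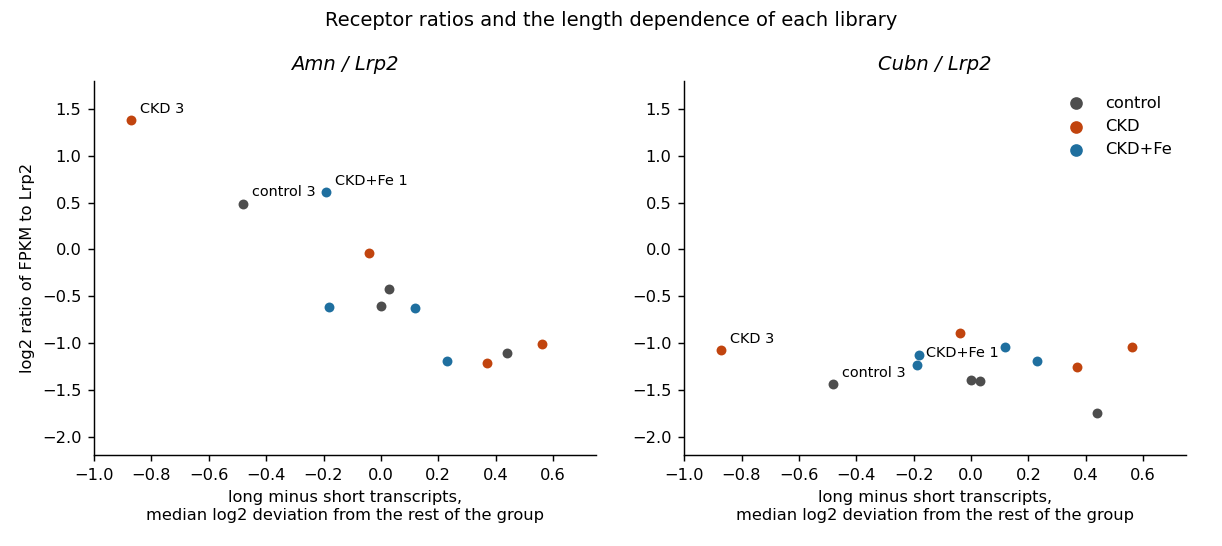
Log2 ratio to Lrp2 (vertical axis) of Amn, left, and Cubn, right, against the length dependence of each library (horizontal axis, median log2 deviation of long minus short transcripts), 1 point per mouse. The Amn ratio is highest in the 3 labelled libraries and lowest where long transcripts are high, and the Cubn ratio stays within a narrow band.

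The 7 genes were next set against 20 proximal tubule markers, by subtracting the mean log2 level of the markers in each mouse. Lrp2 was 1.57 below the markers in control mice and 1.51 below in CKD mice, a difference of 0.06 with overlapping groups (exact p = 0.943). Amn differed by 0.26 with overlapping groups (exact p = 0.686). Cubn differed by 0.52, also with overlap (exact p = 0.0857), but its groups separated against the median of the markers in place of their mean (0.78, exact p = 0.0286) and without CKD 3 (0.67, exact p = 0.0286). Dab2 (0.99), Fcgrt (1.34), Clcn5 (1.83) and Ocrl (3.00) were each higher against the markers in every CKD mouse than in any control mouse (exact p = 0.0286 for each, 0.1 after adjustment over 14 comparisons). So were 92.4% of all genes outside the marker list, and nothing particular to the 4 genes is read from it. The 20 markers themselves had a median log2 change of -1.82, with Miox at -3.17, the phosphate transporter Slc34a1 at -2.54 and Slc4a4 at 0.00 on the log2 scale.

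The second comparison asked whether iron dextran changed these genes in CKD kidneys. In CKD+Fe against CKD mice limma called 0 of the 7 genes in either direction, and 0 had an unadjusted p under 0.05. The background was as sparse, with 0.00761% of all genes higher, which is 1 gene, and 0% lower, although 790 genes had an unadjusted p under 0.05. Of the 7 genes 0 separated the groups fully, against 1.35% of all genes above and 1.09% below. All 7 differences were positive, from 0.08 for Ocrl to 0.48 for Lrp2 on the log2 scale, with a median of 0.26. The median of all genes was -0.000503. The 7 differences come from the same mice, and without CKD 3 those of Clcn5 and Ocrl were -0.06 and -0.16. Beside the 7 genes, 19 of 20 proximal tubule markers had positive differences (median 0.38) and 8 of 8 injury markers negative ones (median -0.61). Of these markers 0 passed, while 5 of 20 and 5 of 8 had an unadjusted limma p under 0.05. Without the 3 libraries that stood apart 3 proximal tubule markers, 0 injury markers and 0 of the 7 genes passed. Of all genes 51 were then higher and 33 lower. The part of the cells these markers stand for in the 7 values was not tested. Against the mean of the proximal tubule markers, Lrp2 differed by 0.01 with iron (exact p = 0.943).

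Lrp2 in CKD+Fe mice 1 to 4 was at 22.2, 45.9, 61.1 and 36.8 FPKM. That is a mean of 41.5 ± 16.3 against 29.1 ± 10.9 FPKM in CKD, a log2 difference of 0.48 with a 95% interval of -0.21 to 1.17 (limma adjusted p = 0.945). Cubn was at 9.43, 20.9, 26.8 and 17.9 FPKM in CKD+Fe mice 1 to 4, a log2 difference of 0.39 with an interval of -0.23 to 1.01 (adjusted p = 0.958). Single libraries moved both values. Without CKD+Fe 3 the log2 difference was 0.27 for Lrp2 and 0.20 for Cubn, and without CKD+Fe 1 it was 0.74 and 0.67. For both receptors CKD+Fe 1 lay within or below the CKD range and CKD+Fe 2 and 3 lay above it, with CKD+Fe 4 inside it for Lrp2 and just above it for Cubn. CKD+Fe 1 had the lowest summed proximal tubule markers of its group, at 1982 FPKM, and the highest summed macrophage markers, at 3747 FPKM.

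Amn in CKD+Fe mice 1 to 4 was at 33.9, 29.8, 26.8 and 23.7 FPKM, each above CKD 1, 2 and 4 and below CKD 3. Its log2 difference was 0.24 (95% interval -0.39 to 0.86) with CKD 3 and 0.63 without it (limma adjusted p = 0.182 without CKD 3). Dab2 was at 101, 118, 130 and 98.4 FPKM in CKD+Fe mice 1 to 4, a log2 difference of 0.26 with an interval of -0.07 to 0.60 (adjusted p = 0.908). The intervals leave room for no change and for a gain of over 1 on the log2 scale in Lrp2, so that the size of any iron effect was not resolved with 4 mice a group.

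Clcn5 (12.8, 16.1, 21.4 and 17.3 FPKM in CKD+Fe mice 1 to 4) and Ocrl (11.6, 12.2, 13.3 and 13.8 FPKM) stayed within 0.10 and 0.08 of CKD on the log2 scale, with intervals of -0.38 to 0.58 and -0.34 to 0.49. Ocrl was at least 11.6 FPKM in every CKD+Fe mouse, above all 4 control mice. Fcgrt was at 93.7, 135, 115 and 120 FPKM, a log2 difference of 0.26 with an interval of -0.13 to 0.65. None of the ratios to Lrp2 differed by more than 0.40 on the log2 scale with iron, and all overlapped (exact p of 0.2 or more). Of all other genes 0.0380% had a ratio to Lrp2 that was higher in every CKD+Fe mouse than in any CKD mouse, and 0.342% one that was lower.

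CKD+Fe kidneys were also set against control kidneys, with the same control mice as above. Again 4 of the 7 genes were lower and 1 was higher, with 11.0% and 54.4% of all genes lower and higher. Lrp2 (log2 change -1.16, SE 0.32, limma adjusted p = 0.00612), Amn (-1.21, SE 0.29, adjusted p = 0.00267), Cubn (-0.80, SE 0.29, adjusted p = 0.0250) and Dab2 (-0.45, SE 0.16, adjusted p = 0.0226) were the lower genes and Ocrl (1.38, SE 0.19, adjusted p = 5.28e-05) the higher. Cubn and Dab2 each lost the call when control 1, 2 or 4 or CKD+Fe 1 was left out, so that 2 of the 7 were then lower. Dab2 also lost it without CKD+Fe 4 and after quantile normalization (-0.27, adjusted p = 0.260). Lrp2, Cubn and Dab2 overlapped between the groups, with CKD+Fe 3 above control 3 in each. The 2 libraries were at 61.1 and 56.8 FPKM for Lrp2, 26.8 and 20.9 for Cubn, and 130 and 114 for Dab2. Amn was the only lower gene whose groups did not overlap. The share of all genes that separated was not computed for this comparison. After rescaling 5 of the 7 genes were lower and 1 was higher, with 3618 lower and 3636 higher among all 13148 genes. Fcgrt was the added lower gene, at -0.67 (limma adjusted p = 0.0121) against -0.11 on the deposited values.

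The genes that serve the same route were described from a list of 60 symbols in 6 classes. Of these, 59 were matched and 58 tested. In CKD against control 24 rose and 8 fell, with a median log2 change of 0.27, below the median of 0.50 for all genes, and 26 did not pass. The shares over all genes, against which this list and its classes are to be read, were 54.6% higher and 13.3% lower. After rescaling 8 were higher and 20 lower, so that the balance of the list turned over with the scale, where all genes had 28.8% higher and 29.3% lower. With quantile normalization 12 were higher and 10 lower, against 23.3% and 25.6% of all genes. In CKD+Fe against CKD 0 of the 58 passed in limma and 2 had an unadjusted p under 0.05 (Ap2b1 and Scarb2, both lower).

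Lrpap1, the receptor-associated protein that escorts megalin through the secretory pathway, was lowest of the 58. It was at 287, 286, 303 and 259 FPKM in control mice 1 to 4 and at 93.8, 67.5, 128 and 65.9 FPKM in CKD mice 1 to 4. Its log2 change of -1.72 (SE 0.19, limma adjusted p = 6.63e-06) was close to the -1.64 of Lrp2, its client, and its control mice were more alike than those of Lrp2. It was -2.29 after rescaling and -1.69 after adjustment for transcript length. Mesd, the other chaperone of the LDL receptor family on the list, had a log2 change of 0.26 (adjusted p = 0.102).

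Among adaptors and coat genes 9 of 16 rose and 1 fell, against 2 higher and 2 lower after rescaling. Hip1, which links clathrin to actin, rose by 2.03 (SE 0.17, limma adjusted p = 6.37e-07), from 1.87 to 2.71 FPKM over the control mice to 9.21 to 14 over the CKD mice. Ap2b1, the beta subunit of the AP-2 adaptor, rose by 1.35 (SE 0.11, adjusted p = 5.29e-07), from 20.0 ± 0.494 to 52.6 ± 4.47 FPKM. Both kept their direction and call under rescaling and quantile normalization, at 1.58 and 1.26 for Hip1 and 0.79 and 1.12 for Ap2b1.

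Of 15 endosome and recycling genes 4 rose and 4 fell, against 2 higher and 7 lower after rescaling. Rab38, a small GTPase of lysosome-related organelles, fell by 0.88 (SE 0.13, limma adjusted p = 7.49e-05), from 11.1 ± 1.14 to 5.55 ± 0.476 FPKM. Rab11fip3, a Rab11 effector of recycling endosomes, fell by 0.77 (SE 0.16, adjusted p = 0.000921), and Ehd1, a recycling ATPase, fell by 0.66 (SE 0.17, adjusted p = 0.00343). Appl2, a Rab5 effector of early endosomes, had a log2 change of 1.19 (SE 0.25, adjusted p = 0.000888). These 4 genes kept their direction and call under rescaling, at -1.40, -1.34, -1.23 and 0.65.

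Of 8 phosphoinositide genes 6 rose and 0 fell, with a median of 0.50, the same as that of all genes, and after rescaling 3 were higher and 1 lower. Inpp5b, the closest relative of Ocrl, was not among them. It had a log2 change of -0.33 (SE 0.16, limma adjusted p = 0.0745) from 28.7 ± 5.04 to 22.6 ± 4.27 FPKM, and -0.89 (adjusted p = 0.000336) after rescaling. In control kidneys its level was above that of Ocrl (4.29 ± 0.411 FPKM).

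Of 12 acidification and chloride genes 3 rose and 2 fell, against 0 higher and 7 lower after rescaling. The relatives of ClC-5 that share endosomes with it, Clcn3 (log2 change -0.19, limma adjusted p = 0.525) and Clcn4 (0.22, adjusted p = 0.184), did not pass on the deposited values. Clcn3 was at -0.75 (adjusted p = 0.0247) and Clcn4 at -0.34 (adjusted p = 0.0553) after rescaling. Of 5 lysosome membrane genes 2 rose, against 1 higher and 2 lower after rescaling. Scarb2, the lysosomal receptor LIMP-2, was highest, with a log2 change of 1.50 (SE 0.13, adjusted p = 6.86e-07) from 13.3 ± 1.20 to 39.3 ± 4.08 FPKM and 0.95 after rescaling.

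**Figure D5:**
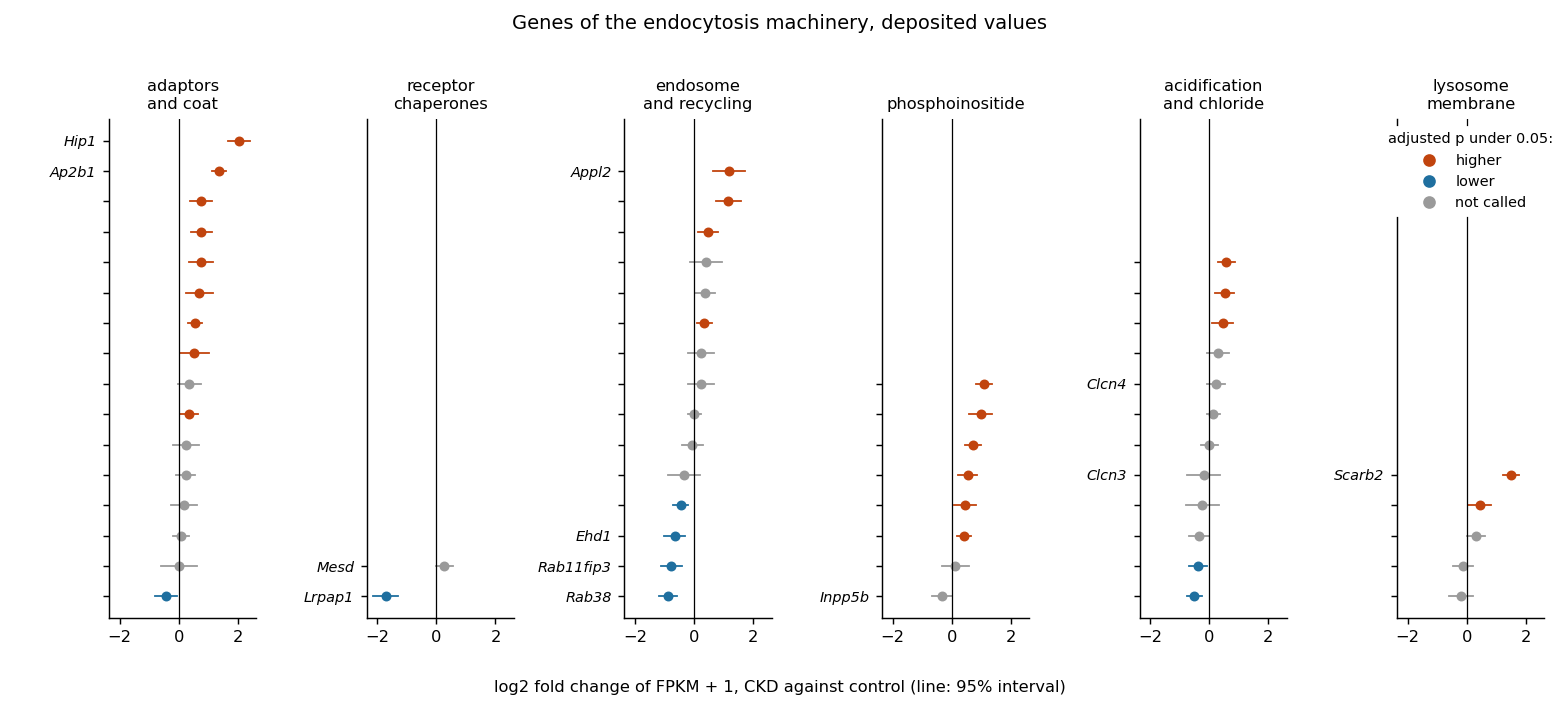
Change on the log2 scale of FPKM + 1 between CKD and control kidneys (horizontal axes) for the 58 tested genes of the endocytosis machinery in 6 classes, on the deposited values. Points are estimates, lines are 95% intervals, names are given for the genes the text describes, and colors mark genes past an adjusted p of 0.05. Hip1, Scarb2 and Ap2b1 are farthest right and Lrpap1 is farthest left.

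Transcripts of known ligands and partners of the receptors moved in both directions, 6 of 14 higher and 5 lower in CKD against control. After rescaling 4 were higher and 6 lower. Over all genes 54.6% were higher and 13.3% lower, and 28.8% and 29.3% after rescaling. Kidney transcripts of a ligand are not the filtered ligand itself. Lcn2 (lipocalin 2, an injury marker) rose by 7.05 (SE 0.42, limma adjusted p = 4.56e-08), from 8.72 ± 8.12 to 1109 ± 374 FPKM. Clu (clusterin) rose by 3.59 (SE 0.24, adjusted p = 9.28e-08) and Gc (vitamin D binding protein) by 3.58 (SE 0.19, adjusted p = 2.94e-08). Apom (apolipoprotein M) fell by 3.06 (SE 0.40, adjusted p = 2.28e-05), Tcn2 (transcobalamin 2, the carrier of vitamin B12) by 1.77 (SE 0.22, adjusted p = 1.38e-05) and Selenop (selenoprotein P, a megalin ligand) by 1.52 (SE 0.29, adjusted p = 0.000457). These 6 kept their direction and call under rescaling and quantile normalization.

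Of 11 other tested genes of the LDL receptor family, to which Lrp2 belongs, 4 rose and 1 (Lrp11) fell. The shares over all genes were 54.6% higher and 13.3% lower. The family had a median log2 change of 0.35 that was -0.17 after rescaling. Lrp1, a receptor that macrophages and fibroblasts also carry, was at 12.9, 11.9, 18.6 and 14 FPKM in control mice 1 to 4 and at 38.0, 60.4, 83.6 and 47.6 FPKM in CKD mice 1 to 4, a rise of 1.89 (SE 0.31, limma adjusted p = 0.000148). Sorl1 rose by 1.07 (SE 0.21, adjusted p = 0.000493). Lrp8 (0.67, adjusted p = 0.00448) was at 1.04 ± 0.405 FPKM in CKD kidneys, a low level, and its change was -0.07 after quantile normalization. Fibroblast markers were higher in 8 of 8 and macrophage markers in 10 of 10, and their part in the Lrp1 level was not tested.

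Among 8 transcription factors linked to proximal tubule genes 2 fell and 1 rose, against 4 lower and 0 higher after rescaling and 3 lower and 0 higher after quantile normalization. Hnf4a had no usable value in control 3, CKD 4 and CKD+Fe 4. In the other mice it was at 197, 214 and 181 FPKM in control and 76.0, 47.4 and 87.2 FPKM in CKD, a fall of 1.52 (SE 0.21, limma adjusted p = 9.53e-05). It was lower under rescaling and quantile normalization too. Pparg rose by 0.62 (SE 0.23, adjusted p = 0.0270) on the deposited values but was at 0.26 (adjusted p = 0.301) after rescaling and -0.21 after quantile normalization.

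Across the 12 mice, the genes whose profile was most like that of Lrp2 were found by the root mean square difference of log2(FPKM + 1), each gene centered on its own mean, among 9685 genes with a mean of at least 5 FPKM. They were Galnt11 (0.169), Abat (0.184), Aass (0.186), Lrrc19 (0.204) and Kmo (0.205), and Cubn was at rank 11 (0.232). Near Cubn were Slc2a2 (0.122), Papss2 (0.131), Mut (0.177) and Abcg2 (0.192), with Lrp2 at rank 21. Amn was at rank 1683 for Lrp2 and 3328 for Cubn. Dab2 was at rank 392 and 180, and Ocrl at rank 8172 and 8119. These ranks rest on group differences and on what libraries share, and are a description.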

How the data were processed

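RNA was extracted from whole kidneys, and stranded mRNA libraries (TruSeq) were made and sequenced as single-end reads at a core facility. Per the labels, reads were processed with bcl2fastq 2.19, STAR 2.5.2 and Cufflinks 2.1.1 on build GRCm38. The deposited values are FPKM per gene, normalized by the authors for transcript length and library size. Total counts are not in the table, so the depth of each library is known only relative to the others. The spacing of low values put it at 0.68 to 1.00 of that of control 1, an estimate. The number of mice limits the precision.

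Groups came from the sample titles. Of the deposited values, 30 in 17 genes were marked as failed and were treated as missing. A gene entered the tests when 4 or more mice reached 1 FPKM (13148 genes), and levels were compared as log2(FPKM + 1), a scale that understates changes of low genes. The study tested normalized counts, but here limma 3.58.1 in R 4.3.3 was used, since FPKM values are not counts. All 12 mice were fitted together with a trended variance, and p-values were adjusted by Benjamini-Hochberg over all genes (threshold 0.05). Single ratios were tested by exact two-sided permutation. The scripts were tested on simulated data. Alternatives were another pseudocount, 2 other filters, median-of-ratios and quantile normalization, the median of the proximal tubule markers, the 2 compared groups only, array weights, no variance trend and each mouse left out. Adjustment for transcript length (a spline with 5 degrees of freedom per library) and leaving out the 3 libraries that stood apart were added after seeing the data. The 7 genes and the lists were chosen with earlier results of these data known. Besides the 7 genes, the text names up to 3 genes per list and direction that passed with groups that did not overlap, ranked by fold change, B2m, Lrpap1, Inpp5b, Clcn3, Clcn4 and Hnf4a whatever their values, and the 5 genes most like Lrp2 and Cubn, apart from some genes of these rules that are not reported here. Mesd, Lrp11, Ehd1 in CKD, Appl2 in CKD, Miox, Slc34a1 and Slc4a4 were named after their values were seen. Rab4a and Tf were not matched. Of 9 endothelial markers 0 rose and 1 fell in CKD (6 lower after rescaling), of 6 podocyte markers 3 rose (1 after rescaling), of 11 markers of other nephron segments 1 rose and 4 fell (0 and 5 after rescaling), of 8 urothelium and papilla markers 0 passed on either scale, and of 8 injury markers 8 rose on both. Shares over all genes beside these marker counts were 54.6% higher and 13.3% lower, and 28.8% and 29.3% after rescaling. Coordinates are those of the table with starts counted from 1, and 77.2% of rows had the same span in GENCODE M21.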

Additional observations from a re-analysis of the deposited data

Results flagged for a closer look

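Of 21 groups of 4 mice over the 7 genes, 2 held a mouse whose gap to the nearest other mouse passed Dixon's 95% limit of 0.83 of the group's range, which chance does in about 1 group in 20. Both were CKD 3. Amn was at 55.0 FPKM in CKD 3 against 16.7 to 18.9 in the other CKD mice (gap 0.944 of the range), and Ocrl was at 6.97 against 13.9 to 15.0 (0.856). CKD 3 was also the library with the lowest long minus short transcript deviation, at -0.87, and 806 genes at least 2-fold from its group. The part of that deviation in either value was not tested. After adjustment for transcript length the log2 change in CKD against control was -1.23 for Amn and 1.11 for Ocrl.

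Among the other named genes, 3 groups were flagged in the same way. With the 7 genes included, 5 of 93 groups were flagged, near the chance rate of about 1 in 20. Appl2 was at 7.71 FPKM in control 1 against 11.4 to 11.6 in the other controls. Lcn2 was at 20.8 in control 3 against 3.88 to 5.61. Lrp1 was at 125 in CKD+Fe 1 against 40.1 to 52.3.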

How the results depend on the processing

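Each result was recomputed under each alternative. Of 1013 recomputed values 929 kept their direction and their side of the threshold, or, for counts, stayed within 1.5 times. Leaving out a mouse outside a comparison cannot change the fold change of that comparison, so part of this was fixed in advance. In CKD against control the 4 lower genes (Lrp2, Cubn, Amn and Dab2) and the higher gene (Ocrl) kept their calls under all 23 alternatives. The count of lower genes in CKD+Fe against control ranged from 2 to 4 with 1 mouse left out. For the endocytosis machinery in CKD against control, 8 genes were higher and 20 lower after median-of-ratios rescaling, 12 were higher after quantile normalization, and 8 were higher and 28 lower with rescaling and without the 3 libraries that stood apart. With array weights 1 machinery gene was lower in CKD+Fe against CKD. Without those 3 libraries 2 of the 7 levels against the proximal tubule markers did not overlap between CKD+Fe and CKD mice. The share of all genes was not computed for this setting, and nothing is read from the count. The causes were not tested.

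The exact p of the ratios of Cubn, Dab2 and Fcgrt to Lrp2 in CKD against control rose to 0.0571, 0.0571 and 0.0857 with 1 mouse left out, although these groups still did not overlap. Clcn5 changed sign with the scale. Its log2 change in CKD against control was -0.42 after rescaling, -0.32 after quantile normalization, -0.21 after adjustment for transcript length and -0.48 (adjusted p = 0.0191) with rescaling and without the 3 libraries, and -0.05 to 0.28 with 1 mouse left out. In CKD+Fe against control it was -0.31, -0.23, -0.02 and -0.37 in the same order. Fcgrt in CKD+Fe against control was -0.11 on the deposited values, 0.05 after quantile normalization and 0.05 after the length adjustment. It was lower after rescaling (-0.67, limma adjusted p = 0.0121) and with rescaling and without the 3 libraries (-0.68, adjusted p = 0.00114). In CKD+Fe against CKD, Ocrl was -0.05 with array weights, -0.12 without the 3 libraries and -0.06 with rescaling as well, and with 1 mouse left out Ocrl ran from -0.16 to 0.18 and Clcn5 from -0.06 to 0.22. With 1 mouse left out, the log2 ratio to Lrp2 ran from -0.34 to 0.52 for Amn in CKD against control, from -0.60 to 0.29 for Amn with iron and from -0.51 to 0.03 for Fcgrt with iron, and the Amn ratio was -0.04 in CKD against control without the 3 libraries. Against the proximal tubule markers, Lrp2 ran from -0.07 to 0.21, Amn from -0.10 to 0.49 and Cubn from 0.41 to 0.67 in CKD against control, and with iron Lrp2 ran from -0.14 to 0.11, Cubn from -0.23 to 0.02 and Amn from -0.54 to 0.14. Lrp2 against the markers with iron was -0.11 without the 3 libraries. With 3 against 3 mice the exact test cannot go below 0.1. No paired analysis was possible because the labels give the groups no shared replicate numbers.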
